A study of Rattus norvegicus with 6 samples.

Results

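Cholinergic neurons were identified among single nuclei from the brains of male wild-type Wistar rats, 12 weeks old, taken 48 h after a filament had been left in place to block the right middle cerebral artery (MCAO) or after sham surgery. Of the 73649 nuclei within the quality limits, 52858 were neurons and 286 were cholinergic. The cholinergic nuclei were chosen by their measured UMIs (unique molecular identifiers, each standing for 1 captured RNA molecule). A nucleus was taken when it held at least 3 UMIs of *Chat*, *Slc5a7* and *Lhx8* together, with at least 2 of these 3 genes seen, at least 5 UMIs of the neuronal genes *Snap25*, *Syt1* and *Rbfox3*, and no UMI of *Slc17a7*, the vesicular glutamate transporter of cortical excitatory neurons. The limits required at least 500 UMIs, 250 to 5000 genes and at most 5% mitochondrial UMIs, counted over genes whose names begin with Mt-.

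Cholinergic neurons join choline and acetyl-CoA through choline acetyltransferase (*Chat*), recover choline from the synaptic cleft through the high-affinity transporter *Slc5a7*, and are specified in the ventral forebrain by LIM-homeodomain factors such as *Lhx8*. In the forebrain they comprise tonically active interneurons of the striatum, and projection neurons of the basal forebrain that supply the cortex and depend on nerve growth factor. They are few in number, and their signal acts on the medium spiny neurons, interneurons and cortical cells around them.

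The 6 libraries fell into 3 groups of 2. The Sham group comprised the left (Sham L) and right (Sham R) hemispheres of 4 sham-operated rats. The MCAO contra group held the left hemispheres, opposite the blocked artery, of 3 rats with moderate injury (mMCAO contra) and of 4 rats with severe injury (sMCAO contra). The MCAO ipsi group held the right, ischemic hemispheres of the same rats (mMCAO ipsi and sMCAO ipsi). Tissue of several rats was pooled in each library, so both libraries of Sham came from the same animals, and the libraries of an MCAO group differed in severity. Values given for all libraries follow the order Sham L, Sham R, mMCAO contra, sMCAO contra, mMCAO ipsi, then sMCAO ipsi.

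The libraries held 50, 72, 60, 50, 31 and 23 cholinergic nuclei. Their summed depths were 284263, 279469, 327349, 273738, 198960 and 252442 UMIs. The median cholinergic nucleus had 5598, 3657, 5477, 5236.5, 6778 and 10849 UMIs. Depth was thus lowest in Sham R and highest in sMCAO ipsi, and the same order of extremes held in comparison neurons, the 36160 neurons without a UMI of *Slc17a7* or of the 3 defining genes, whose medians were 3153, 2309, 3539, 3025, 3636 and 5900 UMIs. A doublet score marked 10 of the 286 nuclei (3.5%) and 5.49% of comparison neurons, and these were kept. By library it marked 1, 2, 1, 2, 2 and 2 cholinergic nuclei, or 2%, 2.78%, 1.67%, 4%, 6.45% and 8.70%. The share was thus highest in the 2 ischemic libraries, as it was in comparison neurons (5.85% in mMCAO ipsi and 9.16% in sMCAO ipsi). Of the 286 nuclei, 22 (7.69%) carried a cell barcode that also occurred in another library, against 8.31% of all nuclei.

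The genes of the rule are described without a test, since they chose the nuclei. *Chat* was seen in 280 of the 286 nuclei (97.9%), *Slc5a7* in 88.8% and *Lhx8* in 70.3%. All 3 genes were seen together in 163 nuclei (57.0%), *Chat* with *Slc5a7* only in 85 and *Chat* with *Lhx8* only in 32, while 6 nuclei qualified without *Chat*. *Chat* stood at 802, 755, 648, 683, 729 and 677 CPM (a gene's UMIs relative to all UMIs of the class in the library, scaled to the same total for each library), so that no library lacked it. As a measure of free RNA in the droplets, *Chat* UMIs were found in 0.100% of 1997 neurons with at least 3 UMIs of *Slc17a7* (median 6192 UMIs) and in 0.295% of 14223 other neurons with medium spiny markers (median 3571 UMIs).

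At the edge of the rule, 25 cholinergic nuclei held exactly 3 UMIs of the defining genes, and their level of *Prima1*, which the rule did not use, was 354 CPM. Just outside lay 31 nuclei with 2 UMIs spread over 2 genes, where *Prima1* stood at 139, and 41 nuclei with 3 or more UMIs of a single gene, where it stood at 126. A further 16 nuclei met every criterion except the absence of *Slc17a7*, with *Prima1* at 277. All of these levels lay above that of comparison neurons, 3.93 CPM.

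Several other genes of acetylcholine handling were more abundant in cholinergic nuclei than in comparison neurons. *Prima1*, which anchors acetylcholinesterase in the membrane, stood at 520 against 3.93 CPM, a ratio of 132 (95% interval 118–148, which covers counting error only), and was seen in 87.1% of cholinergic nuclei. Its level was steady over the libraries, at 507, 454, 528, 585, 543 and 507. *Slc10a4*, a synaptic vesicle protein of cholinergic and monoaminergic neurons, was 125 times higher, and *Acly*, which makes acetyl-CoA in the cytosol, stood at 527 against 34.1 (ratio 15.4). *Ache*, the enzyme that breaks acetylcholine down, was 4.64 times higher. Of the 7 genes for acetylcholine synthesis, transport and breakdown with enough UMIs, these 4 were at least 2 times higher and higher in every library, where 6.36% of the 4877 genes with enough UMIs met that mark. The choline transporter-like genes *Slc44a2* (ratio 2.16, higher in 5 libraries) and *Slc44a1* (0.766) and the choline kinase *Chka* (1.48) did not meet it. The vesicular acetylcholine transporter *Slc18a3* was not analysed here.

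Receptor genes were among those with the highest ratios. *Insrr*, the insulin receptor-related receptor, stood at 114 against 0.195 CPM (ratio 585, interval 384–927). *Ngfr*, which encodes the neurotrophin receptor p75, stood at 48.9 against 0.132 (ratio 369). The BDNF receptor *Ntrk2*, by contrast, had a ratio of 0.475 and *Ntrk3* one of 0.815. *Slc17a8*, the vesicular glutamate transporter VGLUT3, stood at 175 against 1.39 CPM (ratio 126) and was seen in 40.2% of the nuclei.

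Other genes among the 20 with the highest ratios span several functions. They include the bile acid receptor gene *Nr1h4* (ratio 135), *Pgm5* (172), a relative of phosphoglucomutase found at adhesion sites, the membrane-repair gene *Dysf* (56.3), the endopeptidase *Ecel1* (57.7), the relaxin-family receptor *Rxfp2* (45.2), the engulfment receptor *Megf10* (38.6), the ectodysplasin receptor *Edar* (24.8), *Mcub*, a subunit of the mitochondrial calcium uniporter (23.7), and the hyaluronan receptor *Cd44* (22.5). *Tacr1*, the substance P receptor and a long-known marker of striatal cholinergic interneurons, was the most abundant of the 20 at 604 against 27.9 CPM (ratio 21.6), and was seen in 73.1% of nuclei. Every one of the 20 was higher than in comparison neurons in all 6 libraries. *Slc17a4*, *Abcg3l2*, *Amigo2* and the unnamed gene ENSRNOG00000065037 were also in the group, and *Abcg3l2* belongs to a family of near-identical copies, so its reads may be divided between copies.

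**Figure D1:**
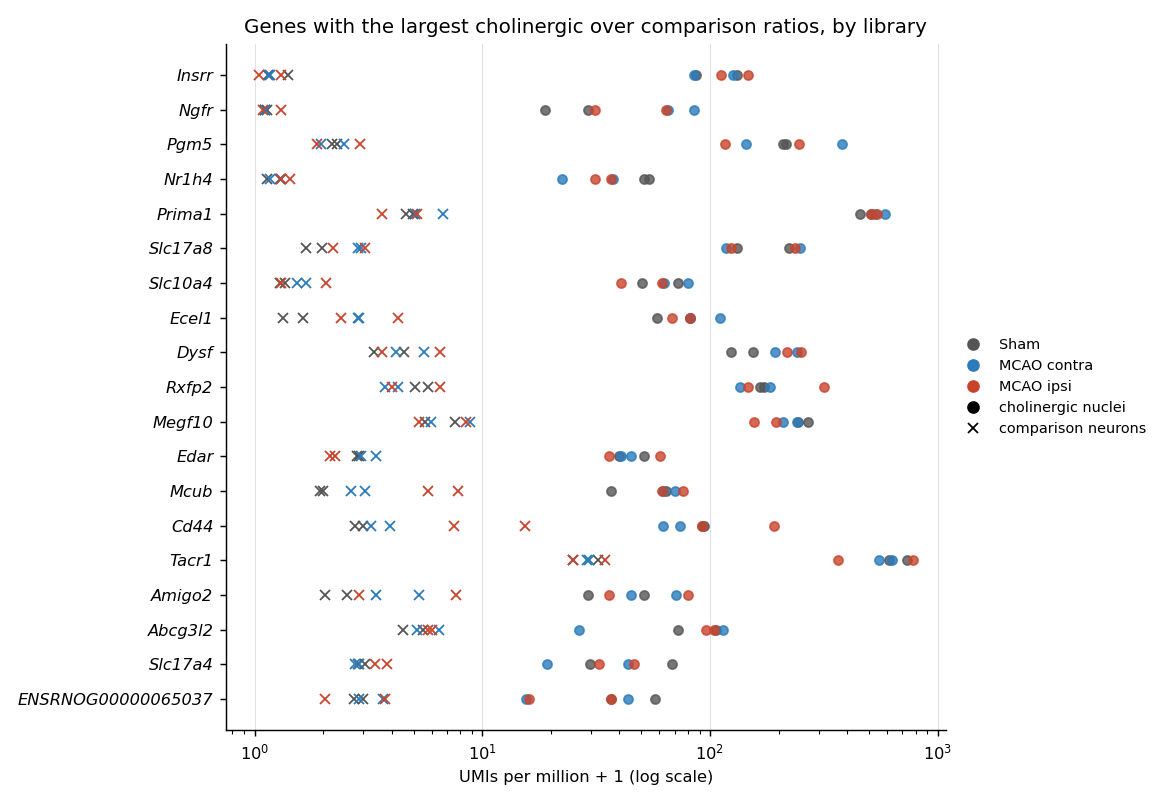
Level of genes among the 20 with the highest ratio of cholinergic nuclei to comparison neurons, in CPM plus 1 on a log scale, 1 point per library and class. For each gene the 6 cholinergic points lie above the 6 points of comparison neurons, with *Prima1* and *Tacr1* the most abundant.

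Among transcription factors outside the rule, *Isl1*, a LIM-homeodomain partner of *Lhx8*, stood at 75.5 against 5.72 CPM (ratio 13.2), *Zfp521* at 525 against 66.9 (7.85) and *Tshz2* at 604 against 211 (2.86). These were all 3 listed factors that could meet the mark, whereas *Sox6*, which is typical of parvalbumin and somatostatin interneurons, had a ratio of 0.108. *Nkx2-1*, which marks the embryonic origin of these neurons in the medial ganglionic eminence, had 25 UMIs in all, and *Gbx2* had none, a count that allows up to 3 UMIs.

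Receptors for other transmitters differed in both directions. Of the 7 receptor genes for modulators with enough UMIs, 5 were above the mark, led by *Tacr1*, the neurokinin receptor *Tacr3* (4.23) and the dopamine receptors *Drd3* (3.66) and *Drd2* (210 against 82.4, ratio 2.55), with the delta opioid receptor *Oprd1* at 2.02. The serotonin receptor *Htr2c* was low (0.161). Of the muscarinic receptors, *Chrm2*, known as the inhibitory autoreceptor of these cells, stood at 788 against 106 (ratio 7.42), whereas *Chrm3* stood at 58.2 against 668 (0.0871). Among glutamate and GABA receptor genes, *Grin3a* (4.03) and *Grik4* (2.50) were above the mark and 8 of 26 were at most 0.5 times and lower in every library, including *Grm3* (0.171), *Grin2a* (0.184), *Grm8* (0.187) and *Grm5* (0.212). The background share of such low genes was 9.88% of 4788.

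Ion channel genes were mostly similar or lower. Of 23 with enough UMIs, 2 were above the mark, among them the sodium channel *Scn9a* at 213 against 65.1 CPM (ratio 3.28). The 8 of 26 on the low side included the M-current subunit *Kcnq5* at 325 against 2407 (0.135), *Kcna1* (0.154), and the T-type calcium channels *Cacna1i* (0.235) and *Cacna1g* (0.324).

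Of the genes for other transmitters, those for GABA synthesis were also seen, *Gad1* in 22.4% and *Gad2* in 35.3% of the nuclei. Either gene was seen in 41.7% of nuclei with *Slc17a8* and in 49.1% of those without it. No measure of free RNA in the droplets is given for *Gad1* and *Gad2*. Their levels were below those of comparison neurons, at 55.7 against 141 CPM for *Gad1* (ratio 0.394) and a ratio of 0.588 for *Gad2*. The vesicular GABA transporter *Slc32a1* and the glutamate transporter *Slc17a6* had 1 UMI each. The neuropeptide genes on the list had 18 UMIs in total over the 286 nuclei, and *Gal*, *Calca*, *Crh*, *Pdyn*, *Tac3* and *Nts* had none. Among the genes with the lowest ratios were *Zfp831* (0.0295), *Hs3st2* (0.0404), *Satb1* (0.0420), *Tox* (0.0592) and *Arpp21*, a striatal and cortical signalling protein, at 66.8 against 1080 (0.0618).

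Markers of most other cell classes were low or absent, but those of other GABAergic interneurons were not. The latter summed to 3186 CPM against 1962 in comparison neurons, led by *Adarb2* with 2866 UMIs (ratio 1.53, higher in 5 libraries), and none of the 3 with enough UMIs met the mark in either direction. Of the medium spiny markers, *Meis2* (0.0952), *Rgs9* (0.164), *Bcl11b* (0.357) and *Foxp1* (0.411) were low and *Drd2*, which cholinergic interneurons are known to express, was high. *Pde10a*, the most abundant of that list at 1180 UMIs, met the mark in neither direction, and the list summed to 1319 CPM against 2942. The glutamatergic markers *Rorb*, *Sv2b*, *Foxp2* and *Cux2* were low, with ratios between 0.0696 and 0.372. The habenular markers had 3 UMIs, the myeloid markers 21 and the vascular markers 5. Astrocyte markers summed to 312 CPM against 625 in comparison neurons, and oligodendrocyte precursor markers to 40.8 against 37.5. Oligodendrocyte markers, led by *Mbp*, summed to 127, 64.4, 219.9, 373, 90.5 and 154 CPM, which was near their level in comparison neurons (191, 172, 213, 257, 160.4 and 192), but with a wider range between libraries.

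Cholinergic nuclei were not uniform. Clustering without the defining genes, the mitochondrial genes and the genes named in the comparisons between conditions split them into 6 sub-clusters of 70, 67, 64, 37, 25 and 23 nuclei, numbered 1 to 6. These are described without tests, because the same genes formed the clusters. *Chat* (563 to 818 CPM) and *Prima1* (461 to 535) were at similar levels in all 6. At a finer resolution 8 sub-clusters formed, with an adjusted Rand index of 0.850 against the 6.

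Sub-clusters 2 and 3 carried most *Slc17a8*, at 422 and 258 CPM, against 13.6 to 43.3 in the other 4. Sub-cluster 2 was further set apart by the G-protein regulator *Rgs6* (1759 against 100.1 in the remaining nuclei), *Pgm5* (628 against 67.3) and *Drd2* (541 against 90.8), and sub-cluster 3 by the adhesion protein *Il1rapl2* (5527 against 503) and the glypican *Gpc6* (5222 against 1168). *Megf10* was shared by both, at 354 and 520, and also stood at 260 in sub-cluster 6.

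Sub-clusters 1 and 4 carried most *Ngfr*, at 98.9 and 141 CPM, against 0 to 35.5 elsewhere. They also held *Klhl1*, an actin-binding kelch-like protein of neurons (343 and 690, with 617 in sub-cluster 5), and *Reln*, the secreted protein reelin (444 and 199.8). Sub-cluster 1 was led by the cannabinoid receptor *Cnr1* (229 against 18.3) and the muscarinic receptor *Chrm3* (171 against 19.1), and sub-cluster 4 by the AMPA receptor auxiliary protein *Shisa9* (1285 against 129). The low class-wide level of *Chrm3* was therefore unevenly divided among the nuclei.

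The 2 smallest sub-clusters also had leading genes of their own. In sub-cluster 5 the teneurin *Tenm3* reached 34924 CPM against 1047 in the remaining nuclei, beside *Slit2* (1908 against 151) and high *Klhl1* (617) and *Drd3* (184). Sub-cluster 6 was led by *Nckap5* (866 against 80.1) and the neuronal nitric oxide synthase *Nos1* (271 against 32.2), and carried *Pard3b*, a cell-polarity gene, at 1018 against 7.09 to 62.2 in the other sub-clusters.

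The division was also visible in single nuclei. *Slc17a8* was seen in 6 of 50 nuclei with *Ngfr* (12%) and in 46.2% of nuclei without it, at median depths of 5886 and 5033 UMIs. *Klhl1* was seen in 8 of 115 nuclei with *Slc17a8* (6.96%) and in 101 of 171 without it (59.1%), at median depths of 5275 and 5026. *Drd2* went the opposite way, with 70.4% against 18.7%. VGLUT3 is known from cholinergic interneurons of the striatum and p75 from projection neurons of the basal forebrain, and the files hold no anatomical position for any nucleus.

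**Figure D2:**
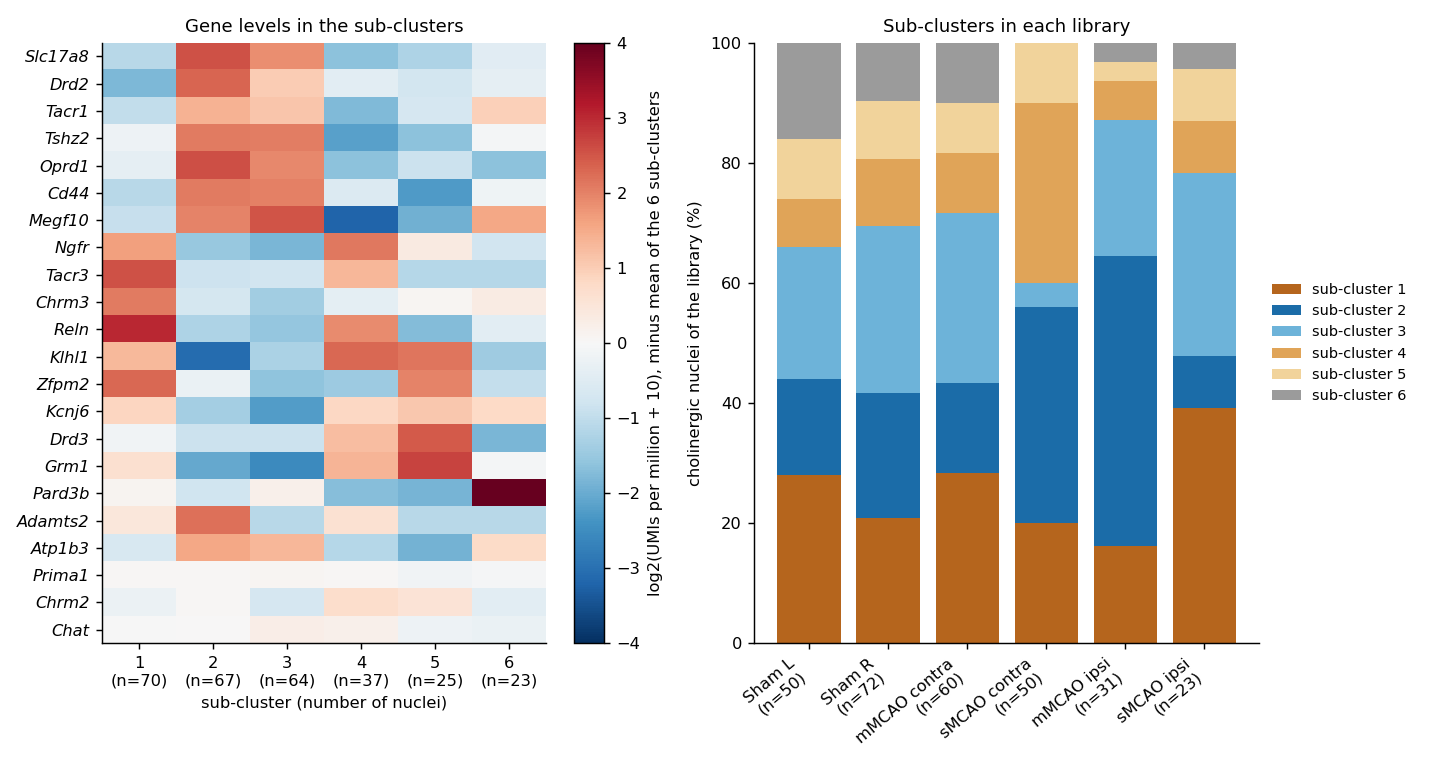
Left, level of selected genes in the 6 sub-clusters on a log2 scale of CPM plus 10, as the difference from each gene's mean over the sub-clusters; right, percent of each library's cholinergic nuclei in each sub-cluster. *Slc17a8* is highest in sub-clusters 2 and 3 and *Ngfr* and *Reln* in 1 and 4, and the mix of sub-clusters varies between libraries of 1 group.

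The mix of sub-clusters varied among libraries, also within a group. Sub-cluster 2 made up 16%, 20.8%, 15%, 36%, 48.4% and 8.70% of the cholinergic nuclei, so that its highest and lowest shares were those of the 2 ischemic hemispheres. Sub-cluster 3 made up 22%, 27.8%, 28.3%, 4%, 22.6% and 30.4%, and sub-cluster 4 8%, 11.1%, 10%, 30%, 6.45% and 8.70%, with sMCAO contra the odd library in both. *Slc17a8* itself stood at 130.2, 222, 116, 248, 236 and 123 CPM, and *Ngfr* at 28.1, 17.9, 64.2, 84.0, 30.2 and 63.4. Any sum over the class therefore also carries this mix, and a gene confined to some sub-clusters moves with it.

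Cholinergic nuclei were a smaller share of all nuclei in the ischemic hemisphere. They made up 0.381%, 0.528%, 0.414%, 0.463%, 0.239% and 0.265% of the nuclei, and both ischemic libraries lay below the other 4. The ratio was 0.548 for MCAO ipsi over Sham (exact 95% interval 0.390–0.761) and 0.574 (0.407–0.802) for MCAO ipsi over MCAO contra. It was alike within the moderate pair (0.578, interval 0.362–0.906) and the severe pair (0.573, interval 0.334–0.957). MCAO contra and Sham differed by less than counting error (0.954, interval 0.730–1.24). The intervals cover counting error only, and 2 libraries against 2 cannot give an exact permutation p below 0.333.

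As a share of all neurons, the 2 severities went apart, but not among deeper neurons. The neurons themselves were 80.3%, 83.4%, 74.2%, 74.8%, 68.8% and 37.1% of the nuclei. Cholinergic nuclei made up 0.475%, 0.633%, 0.558%, 0.619%, 0.348% and 0.715% of neurons, the lowest share being that of mMCAO ipsi and the highest that of sMCAO ipsi. The ratio of the ischemic to the opposite hemisphere was 0.623 (0.390–0.977) in the moderate rats and 1.16 (0.673–1.93) in the severe rats. Between the 2 ischemic libraries, sMCAO ipsi had 2.06 times the share of mMCAO ipsi (1.15–3.64). Pooled, MCAO ipsi over Sham came to 0.799 (0.569–1.11), and to 1.28 without mMCAO ipsi. The median neuron was also deepest in sMCAO ipsi, and the rule asks for a minimum number of UMIs. Among neurons with at least 3000 UMIs the shares were 0.679%, 1.33%, 0.704%, 0.955%, 0.444% and 0.753%. Both ischemic libraries then lay below the opposite hemisphere of the same rats, so the direction in the severe pair turned with the limit on depth.

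Set against medium spiny-like nuclei, the main neurons of the striatum, cholinergic nuclei of the ischemic hemisphere were not at a lower number when all depths were taken. For every 100 medium spiny-like nuclei there were 1.36, 2.15, 2.20, 2.54, 2.17 and 2.60 cholinergic nuclei. The ratio of MCAO ipsi was 0.994 over MCAO contra (interval 0.701–1.40) and 1.34 over Sham (0.952–1.87), and the lowest value was that of Sham L. Among nuclei with at least 3000 UMIs the values were 1.84, 4.19, 2.59, 3.66, 2.94 and 2.62. The ischemic library was then higher than the opposite one in the moderate pair (2.94 against 2.59) and lower in the severe pair (2.62 against 3.66). At all depths the ratio of the ischemic to the opposite hemisphere was 0.984 in the moderate and 1.02 in the severe rats. Some genes that define the medium spiny-like nuclei were themselves lower in ischemic than in Sham comparison neurons, with log2 changes of −1.09 for *Pde10a* (adjusted p = 0.00657, edgeR) and −0.72 for *Rgs9* (adjusted p = 0.00808, edgeR). *Drd2* had −0.19 (adjusted p = 0.165, edgeR), and the part of this in the ratio was not tested. MCAO contra over Sham came to 1.35 (1.03–1.77), while the 2 Sham hemispheres themselves differed by 1.58 times (1.08–2.33). Within a library, a loss of cells and a different amount of striatum or basal forebrain in the slices cannot be told apart.

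**Figure D3:**
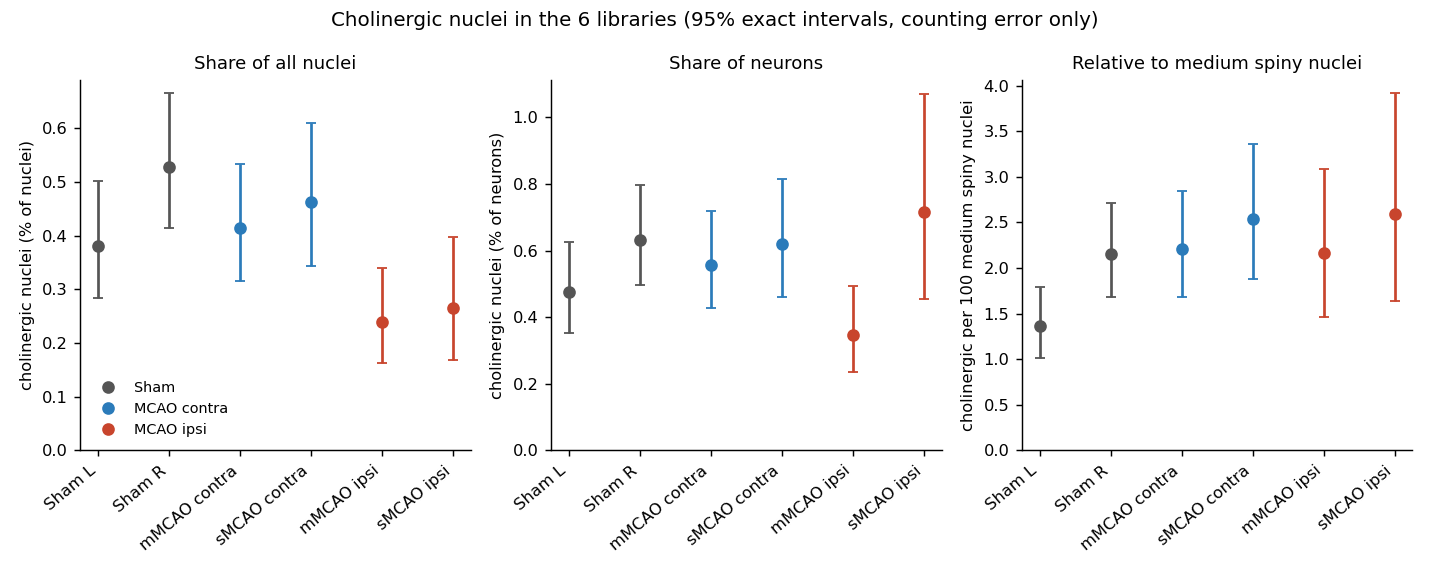
Cholinergic nuclei in each of the 6 libraries as a percent of all nuclei, as a percent of neurons and per 100 medium spiny-like nuclei, with exact 95% intervals for counting error. The ischemic libraries are lowest among all nuclei, the severe ischemic library is highest among neurons, and Sham L is lowest per 100 medium spiny-like nuclei.

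To ask which genes differed between conditions within cholinergic nuclei, UMIs were summed per library and tested with edgeR's quasi-likelihood test over 5040 genes, with Benjamini-Hochberg (BH) adjustment. Genes were called when the adjusted p was below 0.05 and the log2 fold change reached 0.6 in either direction. Levels in these comparisons are normalised CPM, scaled by edgeR's TMM library sizes over the tested genes, while levels of comparison neurons beside them are CPM of all their UMIs. Such p-values measure the spread between pooled libraries, not between rats.

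The genes that define the class are given first, as a description only, since their UMIs chose the nuclei. *Chat* stood at 898, 844, 689, 720, 811 and 740.5 normalised CPM, a log2 difference of −0.17 for MCAO ipsi against Sham, with both ischemic libraries below both Sham libraries. The log2 difference was 0.05 for *Slc5a7* and −0.35 for *Lhx8*. *Prima1*, outside the rule, had one of 0.10. Of the 20 genes with the highest ratios over comparison neurons, none was called in MCAO ipsi against Sham, and their median log2 change was 0.08.

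In MCAO ipsi against Sham none of the 5040 genes was called (0%) by edgeR, and DESeq2 called 1, *Dpp10*. At an unadjusted p under 0.05, 149 genes stood higher and 163 lower. With 1 library left out there were 2 to 34 calls, the most without sMCAO ipsi, when 1 library stood for the group. *Dpp10*, an auxiliary subunit of Kv4 potassium channels, was nearest to the threshold. It had 4502, 3019, 2673, 2321, 1286 and 1706 normalised CPM, the lowest in the 2 ischemic libraries. The log2 change was −1.33 (SE 0.23, adjusted p = 0.067, edgeR), beside −0.88 in comparison neurons (adjusted p = 0.213, edgeR). *Lss*, which encodes lanosterol synthase of the cholesterol pathway, had 150, 148, 117, 104, 61.5 and 52.0, with a log2 change of −1.40 (SE 0.31, adjusted p = 0.182, edgeR). *Cntnap4*, a neurexin-family adhesion gene, had 295, 456, 286, 304, 212 and 139, again without overlap, and a log2 change of −1.12.

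Transcripts of the mitochondrial genome, a list drawn up after its values had been seen, included none that was called in MCAO ipsi against Sham. Its members *AY172581.24* and *AY172581.9* were called in MCAO ipsi against MCAO contra, as given below. Their names do not begin with Mt-, so the limit on mitochondrial UMIs did not count them. Of the 37 features 22 had no UMI and 12 were tested. Some of these, *Mt-nd4l* among them, passed the filter on low counts only through the ischemic libraries, so no count over the 12 is given. *Mt-co2*, which passed it in every library, had 74.8, 52.0, 58.5, 80.8, 156.5 and 155.9 normalised CPM, without overlap between MCAO ipsi and Sham. *Mt-nd4l* had 11.8, 12.0, 16.2, 26.9, 61.5 and 77.9 normalised CPM, and *Mt-co1* had 74.8, 36.0, 74.7, 131, 173 and 182. Over the whole genome, mitochondrial UMIs were 1003, 322, 477, 943, 1824 and 3839 CPM in cholinergic nuclei and 831, 827, 788, 1198, 1049 and 3565 in comparison neurons. Both classes peaked in sMCAO ipsi, the library with the smallest share of neurons and the deepest nuclei, and the part of these in the result was not tested.

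The ischemic hemisphere differed from the opposite one in 5 called genes of 5040 (0.0992%). At an unadjusted p under 0.05, 166 genes (3.29%) stood higher and 153 (3.04%) lower. *AY172581.24* and *AY172581.9*, which have no gene symbol and stand among the mitochondrial genes in the feature list, and *Atp1b3*, a beta subunit of the sodium-potassium pump, rose. *Klhl1* and *Zfpm2*, a cofactor of GATA factors, fell. By DESeq2 none was called, and with 1 library left out there were 4 to 55 calls, the most without sMCAO ipsi.

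*AY172581.24* (ENSRNOG00000043866) had 543.5, 99.95, 123, 281, 833 and 2728 normalised CPM, a log2 change of 3.17 (SE 0.53, adjusted p = 0.0144, edgeR), which was 2.08 without sMCAO ipsi and 3.86 without sMCAO contra. *AY172581.9* (ENSRNOG00000030478) had 98.5, 28.0, 26.0, 57.7, 168 and 277 (log2 change 2.47, SE 0.42, adjusted p = 0.0144, edgeR), with 1.96 without mMCAO contra and 3.11 without sMCAO contra. Both were higher in the ischemic libraries than in any other. Comparison neurons had 319.8, 280.0, 207, 358, 449.9 and 2276 CPM of *AY172581.24*, also highest in sMCAO ipsi, with a log2 difference of 2.23 between the hemispheres (adjusted p = 0.104, edgeR). The counts were concentrated in few nuclei, a single one holding 289 of the 630 UMIs of *AY172581.24* in sMCAO ipsi, 109 of 149 in mMCAO ipsi and 96 of 138 in Sham L.

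*Atp1b3* had 378, 308, 253, 285, 632 and 550.0 normalised CPM, a log2 change of 1.13 (SE 0.21, adjusted p = 0.0316, edgeR). Both ischemic libraries lay above the other 4. The change against Sham was 0.78 (adjusted p = 0.270, edgeR). In comparison neurons *Atp1b3* had 64.2, 69.6, 55.7, 73.1, 60.0 and 67.4 CPM, a log2 difference of −0.02 between the 2 hemispheres. The call was lost when any library other than sMCAO ipsi was left out, with adjusted p from 0.057 to 0.167 by edgeR, and with the rat pool as a block (adjusted p = 0.0773). In sMCAO ipsi 1 nucleus held 29 of the 127 UMIs.

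*Zfpm2* had 25, 8, 35, 42, 2 and 0 UMIs, so it was nearly unseen in the cholinergic nuclei of the ischemic hemisphere. Comparison neurons had 323, 339.5, 262, 246, 364 and 285 CPM, with overlap between the ischemic and Sham libraries. In these neurons both ischemic libraries lay above both libraries of MCAO contra. Pooled, 2 UMIs against 77 in MCAO contra gave a ratio of 0.0346 (interval 0.00412–0.129, adjusted p = 0.0131, edgeR). Against the 33 UMIs of Sham the ratio was 0.0757 (0.00880–0.296), but the adjusted p was 0.182 by edgeR. The gene lay mainly in sub-clusters 1 (188 CPM) and 5 (149), and within sub-cluster 1 it had 14 UMIs in Sham, 62 in MCAO contra and 2 in MCAO ipsi. A single nucleus of sMCAO contra held 15 of that library's 42 UMIs.

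*Klhl1* had 351, 260, 292, 412, 95.03 and 156 normalised CPM, from 89, 65, 90, 107, 17 and 36 UMIs, and the 2 ischemic libraries were the lowest. The log2 change was −1.45 against MCAO contra (SE 0.27, adjusted p = 0.0337, edgeR) and −1.25 against Sham (SE 0.28, adjusted p = 0.182, edgeR). Without sMCAO contra the former was −1.17 (adjusted p = 0.257, edgeR) and without mMCAO ipsi −1.17 (adjusted p = 0.202, edgeR).

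The change of *Klhl1* against Sham was then compared between classes in a model with the library as a block. In comparison neurons *Klhl1* went the other way, at 51.1, 50.9, 69.0, 70.3, 100.2 and 94.0 CPM, a log2 change of 0.79 (adjusted p = 0.0076, edgeR). The difference between the classes was −2.10 (adjusted p = 0.00308, edgeR), and it was called in 14 of 14 settings, with adjusted p between 2.07e-10 and 0.00798. Since *Klhl1* was scarce in nuclei with *Slc17a8*, which were unevenly spread over libraries, its level was also taken in nuclei without *Slc17a8*, a division chosen after its values had been seen. There it stood at 522, 389, 349, 701, 249 and 234 CPM, the 2 ischemic libraries again the lowest. In sub-cluster 1, the largest, it stood at 367 CPM in Sham, 393 in MCAO contra and 238 in MCAO ipsi, the last from 14 nuclei. In sub-cluster 4 it stood at 964, 751 and 218, and in sub-cluster 5 at 754, 663 and 194, with only 4 and 3 nuclei in MCAO ipsi. Sub-cluster 3, where the gene was scarce, ran the other way, from 0 in Sham to 56.6 and 98.8.

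Over all 5040 genes, 3 changes against Sham differed between cholinergic and comparison neurons (0.0595%), those of *Klhl1*, *Pard3b* and *Adamts2*, and 37 did without mMCAO ipsi. *Pard3b* had 177, 184, 114, 23.1, 39.1 and 56.3 normalised CPM, against 69.2, 64.9, 95.8, 93.9, 81.8 and 139.6 CPM in comparison neurons. The difference of the log2 changes was −2.57 (adjusted p = 0.0264, edgeR), and without sMCAO ipsi −2.46 (adjusted p = 0.0512, edgeR). *Pard3b* was concentrated in sub-cluster 6, which held 15 nuclei in Sham, 6 in MCAO contra and 2 in MCAO ipsi, so the size of that sub-cluster moved with it. Within it the level was 1309.8 CPM in Sham, 707 in MCAO contra and 661 in MCAO ipsi, and it was 73.3, 64.5 and 27.4 in sub-cluster 1 and 73.9, 101.9 and 18.0 in sub-cluster 3. The part of the sub-clusters' sizes was not tested.

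*Adamts2*, a procollagen-processing protease, passed the filter on low counts only through the 2 ischemic libraries, so a higher level there was in part fixed by the filter. It had 7, 2, 3, 7, 20 and 12 UMIs, or 27.6, 7.996, 9.74, 26.9, 112 and 52.0 normalised CPM, highest in the 2 ischemic libraries. Comparison neurons had 46.1, 48.1, 37.6, 37.0, 40.2 and 15.7 CPM. The difference of the log2 changes was 3.03 (adjusted p = 0.0358, edgeR), and 2.37 without Sham R (adjusted p = 0.239, edgeR). Of its 51 UMIs, 38 (74.5%) lay in sub-cluster 2, where the level was 46.1 CPM in Sham, 38.9 in MCAO contra and 182 in MCAO ipsi. Of the 17 nuclei of that sub-cluster in MCAO ipsi, 15 came from mMCAO ipsi, so that value rests almost on 1 library. In sMCAO ipsi 1 nucleus held 7 of the 12 UMIs.

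**Figure D4:**
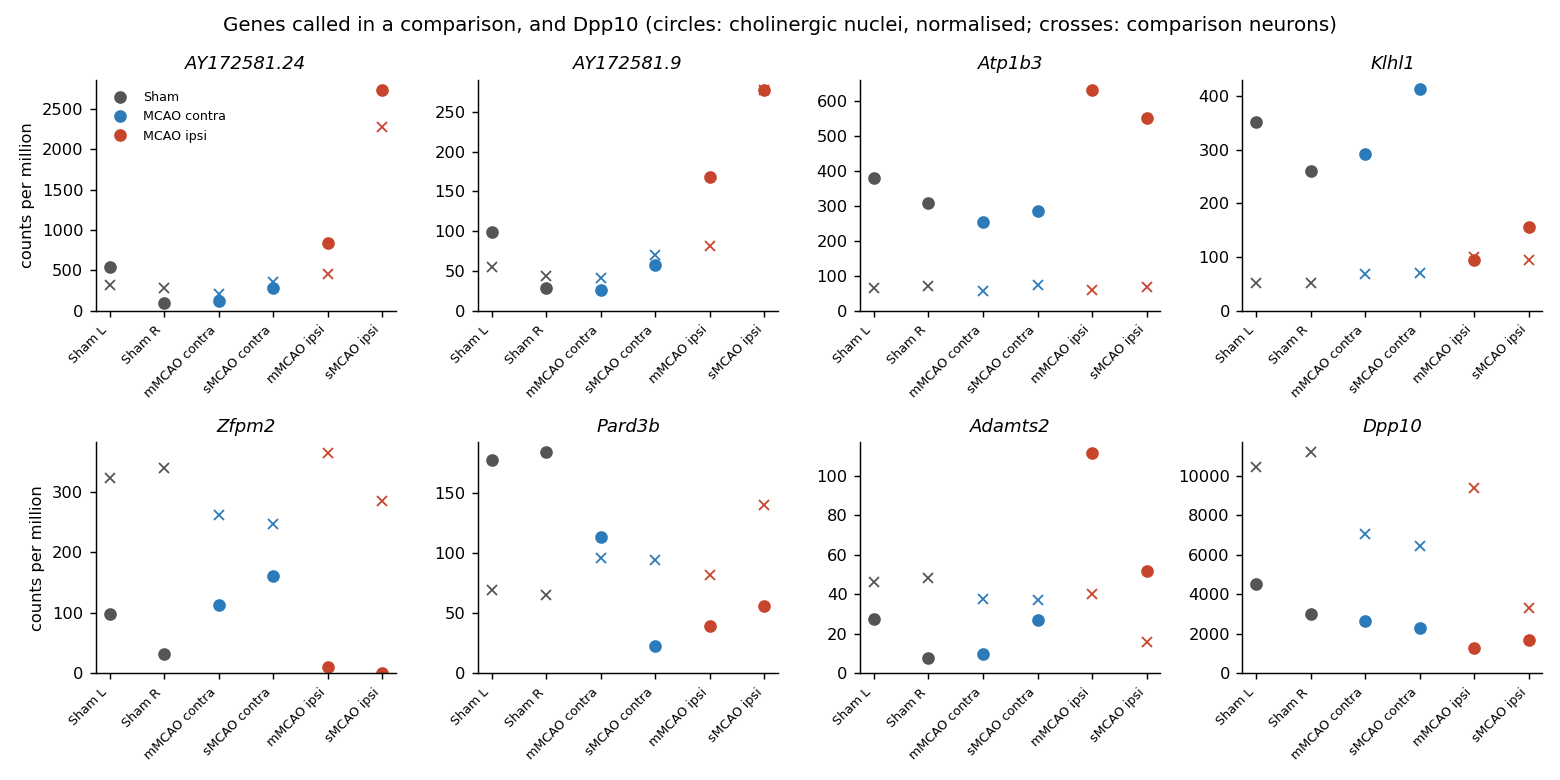
Level of 8 genes in each of the 6 libraries, as normalised CPM in cholinergic nuclei (circles) and CPM in comparison neurons (crosses). In cholinergic nuclei *Atp1b3* and *Adamts2* are highest and *Klhl1*, *Zfpm2* and *Dpp10* lowest in the 2 ischemic libraries, and *Klhl1* in comparison neurons is higher there than in Sham.

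**Figure D5:**
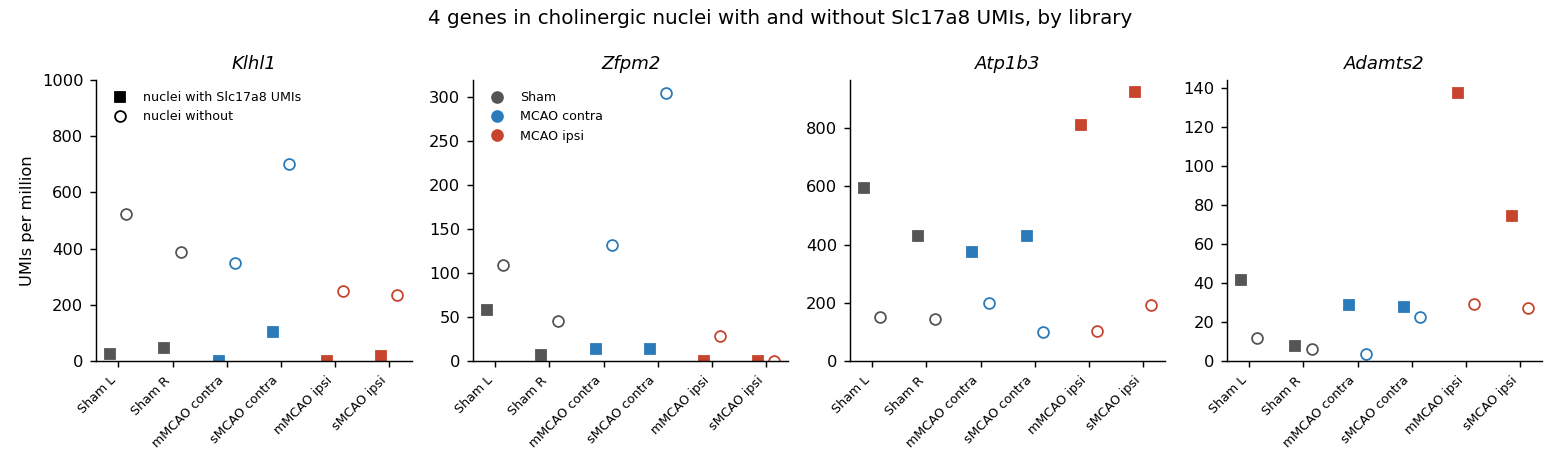
CPM of 4 genes per library in cholinergic nuclei with *Slc17a8* UMIs (filled squares) and without (open circles). *Atp1b3* is at 811 and 924 in the ischemic libraries and 374 to 593 elsewhere among nuclei with *Slc17a8*, and at 99.0 to 202 among those without it, whereas *Klhl1* is found mainly in nuclei without *Slc17a8* and is lowest there in the ischemic libraries.

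*Atp1b3* was higher in the ischemic libraries among nuclei with *Slc17a8*, where it stood at 593, 431, 374, 428, 811 and 924 CPM. In nuclei without *Slc17a8* it stood at 152, 145, 202, 99.0, 103 and 193, with overlapping groups. The sub-clusters did not follow this division throughout. In sub-cluster 2 *Atp1b3* stood at 499 CPM in Sham, 532 in MCAO contra and 891 in MCAO ipsi. In sub-cluster 3, also rich in *Slc17a8*, it stood at 591, 339.7 and 656, and in sub-cluster 1, which had little *Slc17a8*, at 73.3, 123 and 229. These divisions too were chosen after seeing the values and were not tested.

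The next genes in the comparison of the 2 hemispheres were not called. *Kcnj6*, a G-protein-gated potassium channel, had 78.8, 72.0, 84.4, 88.5, 16.8 and 30.3 normalised CPM (log2 change −1.81, adjusted p = 0.277, edgeR). *Rora*, a nuclear receptor, had 417, 448, 325, 400.3, 872 and 546 (0.96, adjusted p = 0.277, edgeR). *Reln* had 158, 144, 218, 212, 83.8 and 121 (−1.04, adjusted p = 0.290, edgeR), and *Sh3rf1*, a scaffold of JNK signalling, 122, 112, 71.5, 77.0, 134 and 208 (1.23, adjusted p = 0.277, edgeR). For each of these the 2 ischemic libraries lay outside the range of the 2 opposite ones.

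The uninjured hemisphere did not differ from Sham in any called gene of 5040 (0%) by edgeR, nor by DESeq2. At an unadjusted p under 0.05, 150 genes (2.98%) stood higher and 161 (3.19%) lower, and 18.6% of genes were higher and 19% lower without overlap between the groups. Without mMCAO contra 14 genes were called. Of the 26 tested glutamate and GABA receptor genes, 5 were lower and 1 higher at that unadjusted p, and 13 were lower and 2 higher without overlap (median log2 change −0.21). The 1 higher was *Grm3*, with 51.2, 43.98, 45.5, 173, 27.9 and 30.3 normalised CPM, which stood out in sMCAO contra alone. The kainate receptor subunit *Grik1* had 362, 348, 182, 131, 263 and 303 normalised CPM (log2 change −1.17, SE 0.22, adjusted p = 0.0951, edgeR). The NMDA receptor subunit *Grin2a* had 279.6, 319.9, 139.7, 80.8, 67.1 and 190.5 (−1.42, adjusted p = 0.141, edgeR). In both, the libraries of MCAO contra lay below both of Sham. *Tafa1*, a secreted neuronal protein, had 331, 279.9, 133, 119, 134 and 212 (−1.27, adjusted p = 0.0951, edgeR), and *Erbb4*, the neuregulin receptor, had 2083, 1883, 1059, 512, 1213 and 1983 (−1.33, adjusted p = 0.141, edgeR). *Erbb4* was highest in sub-clusters 3 (3056 CPM) and 6 (1830), which held 2 and 0 nuclei in sMCAO contra. Within every sub-cluster it was also lower in MCAO contra than in Sham. It stood at 383 against 1567 CPM in sub-cluster 2, 2118 against 4033 in sub-cluster 3 and 1823 against 2006 in sub-cluster 6. The part of the mix of sub-clusters was not tested.

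*Mbp*, the myelin basic protein of oligodendrocytes, had 35.4, 16.0, 84.4, 150.1, 33.5 and 47.6 normalised CPM in cholinergic nuclei, a log2 change of 2.14 in MCAO contra against Sham (adjusted p = 0.141, edgeR). *Mobp*, another myelin gene, passed the filter on low counts only through MCAO contra, and had 1 UMI in MCAO ipsi and 26 in MCAO contra (ratio 0.0512, interval 0.00125–0.312). *Tmsb10* (the feature ENSRNOG00000064090, whose symbol several features share) had a log2 difference of 2.61, *Angel2* of 2.07, *Shisa6* of 1.73 and *Dnaja2* of 1.40, none of them called. The part of oligodendrocyte RNA in these differences was not tested.

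The gene lists held no call against Sham. In MCAO ipsi against Sham no gene of any list of functions was called by edgeR, and the median log2 change over all tested genes was 0.0024. Of the 7 tested acetylcholine genes, 1 was higher and none lower at an unadjusted p under 0.05, with a median of −0.07. Of the 26 tested glutamate and GABA receptor genes none was higher and 3 were lower (median −0.16), and of the 22 tested channels 1 was higher and 3 lower (median −0.07). Of the 5 tested neurotrophin receptors 1 was lower (median −0.33). The 3 transcription factors (median 0.11), 3 acetylcholine receptors (−0.02) and 7 modulator receptors (−0.26) had none at that p, and 1 of 3 co-transmission genes, *Gad1*, was higher (median −0.03). Against this, 2.96% of all genes were higher and 3.23% lower at that p.

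Stress genes showed no called change either. The 8 tested heat-shock genes had a median log2 change of 0.42, with 4 of 8 higher and 2 of 8 lower without overlap (17.1% and 17.6% of all genes were) and none at an unadjusted p under 0.05. The 4 tested genes of the unfolded protein response (median 0.01), the 6 of the hypoxia response (−0.04) and the 8 of axon growth (−0.02) had none at that p in either direction. Of the 2 tested genes of the p53 and apoptosis list (median 0.58), *Mdm2*, the ubiquitin ligase that acts on p53, stood higher at that p. Its log2 change was 1.09 (adjusted p = 0.755, edgeR), beside 1.13 in MCAO contra against Sham and −0.04 in MCAO ipsi against MCAO contra. In comparison neurons the change of *Mdm2* in MCAO ipsi against Sham was 0.64 (adjusted p = 0.00869, edgeR). Only 1 immediate early gene, *Homer1*, had enough UMIs to be tested.

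Comparison neurons, with far more UMIs, had 956 called genes of 15853 in MCAO ipsi against Sham, 718 higher and 238 lower. Thinned to the UMI sums of the cholinergic nuclei they had 43 of 4955. Thinned in the same way they had 5 called genes for MCAO ipsi against MCAO contra and 7 for MCAO contra against Sham. With all their UMIs these counts were 288 and 0. Whether cholinergic nuclei had a smaller response than other neurons was tested only gene by gene, in the model of the difference between classes.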

How the data were processed

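Raw UMI counts of 30560 genes, as whole numbers, were deposited by the authors for each of the 6 libraries. The submitters' notes name Cell Ranger 7.0.0 and mRatBN7.2, and per the study's methods nuclei were sequenced with a 5′ kit and intronic reads were included. The ambient RNA and doublet removal of the study come after these counts and were not applied here.

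The members and gene lists were chosen with earlier results of these data known. Cholinergic nuclei were selected by marker UMIs, doublets were scored by simulation and kept, and UMIs were summed per library. The sums entered edgeR 4.0.16 under R 4.3.3 (filterByExpr, TMM, quasi-likelihood F test, 3 groups in 1 fit with 3 residual degrees of freedom, common biological coefficient of variation 0.141). DESeq2 1.42.0 was an alternative. Differences between classes were fitted on both classes' sums with the library as a block. Scripts were tested on simulated data. In counts simulated for MCAO ipsi against Sham, edgeR recovered 38% of the genes changed by a log2 fold of 1. It recovered 79% of those changed by a log2 fold of 2. The shares for DESeq2 were 5% and 58%, so a gene without a call may still have changed.

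Named genes were up to 10 called genes in each direction of a comparison, with up to 5 of the smallest p where fewer than 5 were called, members of the gene lists, and the 20 genes with the highest ratio among those with at least 50 UMIs. Ratios between classes pool all libraries and are in CPM. Sub-clusters came from scanpy 1.11.5 and leidenalg 0.10.2 (1000 variable genes, 10 components, 15 neighbours, resolution 0.6). Medium spiny-like nuclei were comparison neurons with at least 5 UMIs of *Drd1*, *Drd2*, *Ppp1r1b*, *Rgs9*, *Pde10a* and *Adora2a*. The values of a few genes are not reported here. Shares have exact Clopper-Pearson intervals and ratios exact conditional ones, at 95%. Both hemispheres of a severity, and of Sham, came from the same rats, so a fit with the rat pool as a block was an alternative for the comparison of the hemispheres. The moderate-minus-severe differences of the 2 hemispheres correlated at r = −0.0398 across 5040 genes, which are not independent replicates. Comparisons of shares carry no test.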

Additional observations from a re-analysis of the deposited data

Results flagged for a closer look

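The log2 change of MCAO ipsi against Sham differed between cholinergic nuclei and comparison neurons in edgeR's test of the difference itself for 3 genes. The difference was −2.10 for *Klhl1* and −2.57 for *Pard3b*. *Adamts2*, with a difference of 3.03, entered the test only through the ischemic libraries. Its higher level there was thus in part fixed by the filter, and no conclusion is drawn from its call. *Klhl1* was lower in both ischemic cholinergic libraries than in both Sham libraries and higher in both for comparison neurons.

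The cholinergic share of neurons moved in opposite directions in the 2 severities, with an ischemic to opposite ratio of 0.623 in the moderate and 1.16 in the severe rats. The opposite directions were lost among neurons with at least 3000 UMIs, where the shares were 0.444% against 0.704% in the moderate and 0.753% against 0.955% in the severe rats. This difference was not tested, since each ratio rests on 1 pair of libraries, and the share of neurons among all nuclei in sMCAO ipsi was 37.1% against 68.8% in mMCAO ipsi.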

How the results depend on the processing

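The counts of called genes were small and moved with the settings. For MCAO ipsi against Sham (0 called) DESeq2 called 1 and omission of the low-count filter 41. For MCAO ipsi against MCAO contra (5 called) the counts were 0 with DESeq2, 13 without the filter, 3 with members of at least 2 marker UMIs, 0 with at least 4, 0 with only the libraries compared, and 1 with members of at least 4000 UMIs, a setting chosen after seeing the data. For MCAO contra against Sham (0 called) they were 10 without the filter, 5 with only the libraries compared and 4 with members of at least 4000 UMIs. For the difference between classes (3 called) they were 1 with DESeq2, 14 without the filter and 1 with at least 4 marker UMIs. Leaving out 1 library at a time gave 2 to 34, 4 to 55, 0 to 14 and 4 to 37 called genes in these 4 comparisons. The lone library left in a group was then assumed to vary like the others. The counts against Sham were 34 without sMCAO ipsi, 16 without mMCAO contra, 11 without mMCAO ipsi and 8 without sMCAO contra. MCAO ipsi against MCAO contra gave 55 without sMCAO ipsi, 12 without mMCAO contra and 9 without mMCAO ipsi, MCAO contra against Sham 14 without mMCAO contra, 7 without sMCAO ipsi and 6 without mMCAO ipsi, and the difference 37 without mMCAO ipsi and 29 without sMCAO ipsi. With the rat pool as a replicate block, MCAO ipsi against MCAO contra had 4 called genes, *Atp1b3* being the call lost. Sham rats form a pool of their own, so no paired comparison with Sham could be made, and the same fit then sets the moderate level against Sham (0 and 0 called). *Klhl1* kept its difference between classes in 14 of 14 settings, *Zfpm2* its call against MCAO contra in 13 of 16 and *AY172581.24* in 12 of 16, *Klhl1* in 9 of 16 and *Atp1b3* in 5 of 16. *Dpp10* against Sham was called in 7 of 16. The causes were not tested. The cholinergic share of neurons over Sham ran from 0.624 to 1.28 and over MCAO contra from 0.595 to 1.22 when libraries were left out, the highest in both without mMCAO ipsi (1.28 and 1.22). The other ratios of shares moved by less than their counting intervals. No called gene among those followed across settings reversed its direction, whereas the 2 shares of neurons just given, both with intervals that include 1, turned from below 1 to above 1 without mMCAO ipsi. With 23 to 72 nuclei a library, genes of low abundance could not be tested.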
